A study of Mus musculus with 44 samples.

Results

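Single cells in which a read of Emb was found were compared with cells in which none was found, among cells cultured without megakaryocytes. Emb encodes embigin, and 16 of these 24 cells had an Emb value above 0 while the other 8 had a value of 0. The first are called Emb-positive here and the second Emb-negative. The 24 cells are part of a series of 44 single cells, of which the other 20 were cultured with megakaryocytes. The sets were thus selected on the measured Emb value, so Emb levels are given as a description of the choice and support nothing.

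The series profiled cells sorted as osteomacs, macrophages that line bone surfaces, and the question in its title is how megakaryocytes act on embigin and CD166 (the protein of Alcam) in them. Cells of neonatal mouse skull bone (calvaria) of the C57BL/6J strain were kept for 16 h either alone, which gave the 24 cells described here, or with 50000 megakaryocytes, which gave the other 20. Each of these conditions is called a culture below, although the number of dishes is not given. The same sort was applied to both: it kept cells that stained for CD45 and F4/80 and not for CD41, a megakaryocyte surface protein. Single cells were isolated on Fluidigm C1 chips, and SMART-Seq cDNA was made into 1 Nextera XT library per cell. The 24 cells carry a treatment label without megakaryocytes, although their titles use an abbreviation that includes them, and all were captured on plate 3. No label names a culture dish, a pool or an animal, so the 24 cells count as 1 sample: they are not replicates, no p-value or standard error was made, and every SD below is a spread between cells.

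Embigin is a membrane glycoprotein of the immunoglobulin superfamily and a close relative of basigin. It takes part in cell adhesion, and like basigin it accompanies monocarboxylate transporters, the carriers of lactate and pyruvate, to the cell surface. In bone marrow it has been named among the products of osteolineage cells that lie close to haematopoietic stem cells.

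The sort markers were nearly absent from both sets. Ptprc, which encodes CD45, had 1 read in all 24 cells, in Emb-positive cell 7, and Adgre1, which encodes F4/80, had 1 read, in Emb-positive cell 15 (cell numbers only name cells). The sum over the 24 listed genes of a list of macrophage and leukocyte markers was 4.45 reads per 1000000 library reads (CPM) in the lowest, 15.6 in the median and 315 in the highest Emb-positive cell. In the Emb-negative cells the same sum ran from 0 over a median of 12.8 to 96.0 CPM, so the sets overlapped. The lowest cell from the culture with megakaryocytes had 10994 CPM. Aif1, C1qb, C1qc, Fcgr1, Fcgr3 and Spi1 had no read in any of the 24 cells. Of a list of osteoblast and fibroblast genes, summed levels were 924, 5672 and 90397 CPM in the lowest, median and highest Emb-positive cell and 1091, 6870 and 22788 CPM among Emb-negative cells, so both sets held stromal transcripts and neither held a macrophage profile. The cell type in the labels is therefore not used for these cells.

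Emb lies on mouse chromosome 13, from 117208536 to 117274415 on the plus strand of mm10. Emb-positive cells held between 1 and 309 Emb reads, which corresponded to 2.27 CPM in the lowest cell, 49.4 CPM in the median cell and 502 CPM in the highest cell. Their summed 1326 reads (exact Poisson 95% interval 1256 to 1399, counting error only) gave 149 CPM. Just inside the threshold, cell 10 was positive on a single read, and the next cell up had 10 reads. Just outside it, each of the 8 Emb-negative cells had 0 reads, which at a limit of 3 reads allows up to 4.57 to 11.1 CPM depending on the cell, and up to 0.854 CPM over the 8 cells together. All 16 Emb-positive cells kept at least 1 Emb read when every library was thinned to 270000 reads in 1 random draw. The only Emb read of cell 10 was kept there and could be lost in another draw. In the culture with megakaryocytes, all 20 cells had Emb reads, with 41.9 CPM in the lowest, 916 CPM in the median and 3200 CPM in the highest cell. The upper Emb-positive cells thus overlapped the lower cells of that culture.

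**Figure D1:**
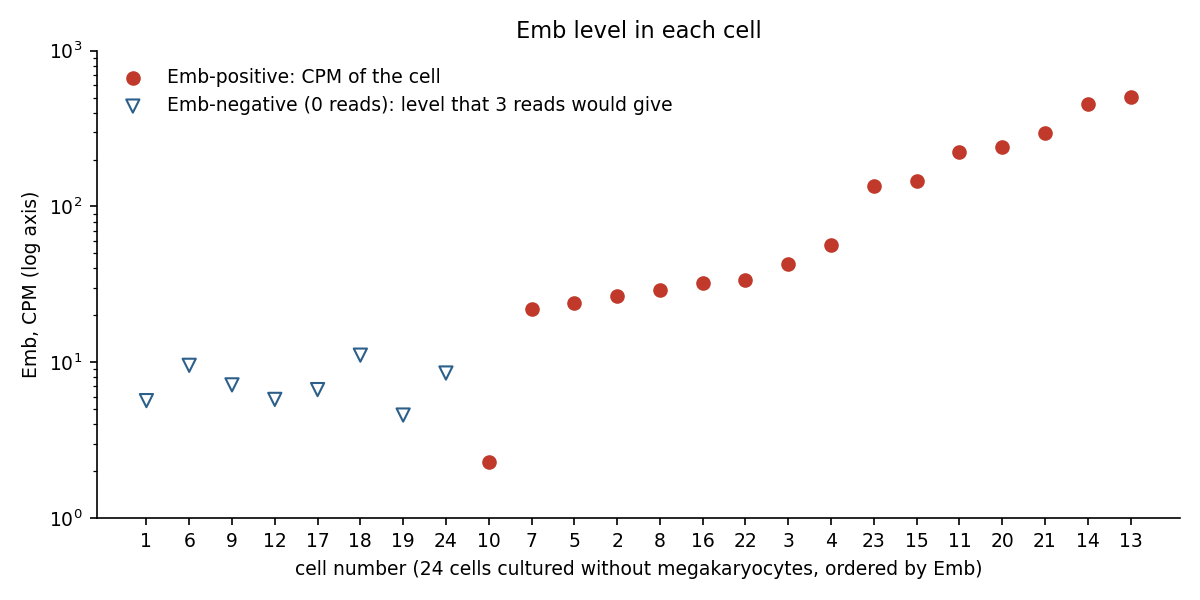
Emb level of the 24 cells cultured without megakaryocytes, ordered by level, on a log axis in CPM. Circles are the 16 Emb-positive cells, and open triangles mark, for the 8 Emb-negative cells, the level that 3 reads would give; cell 10, with 1 read, lies below those limits, and 7 circles lie above 100 CPM.

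Emb-negative cells were read less deeply. Library reads ran from 297977 over a median of 602960.5 to 714465 in Emb-positive cells and from 270537 over a median of 435010 to 656064 in Emb-negative cells. The ranges overlapped, with 7 of the 8 Emb-negative cells below the Emb-positive median. The number of listed genes with a read was 2092, 2563 and 2837 in the lowest, median and highest Emb-positive cell, against 1946, 2317.5 and 2687. After thinning to 270000 reads the medians were 2488.5 and 2234.5 genes, so Emb-positive cells still showed more genes at equal depth. The share of library reads that fell on listed genes had a median of 64.4% in both sets. Malat1, a nuclear RNA, took a median of 0.430% of the reads of Emb-positive and 0.586% of those of Emb-negative cells. Part of any difference below may go with depth or with the number of genes seen in a cell, and that part was not tested; counts at equal depth are given beside the main ones.

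**Figure D2:**
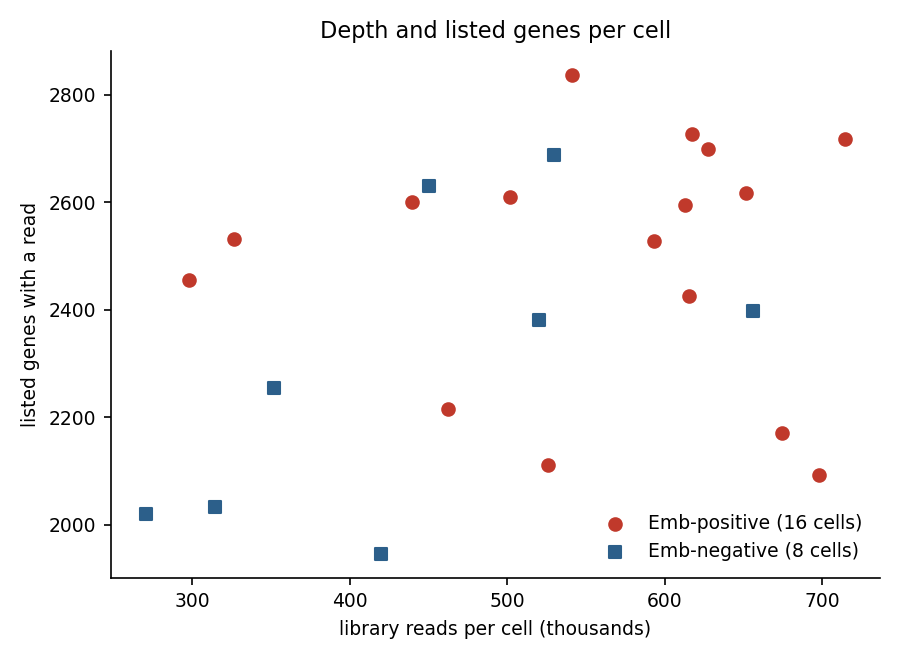
Library reads, in units of 1000, and number of listed genes with a read for each of the 24 cells. Circles are Emb-positive and squares Emb-negative cells; 3 Emb-positive cells had more library reads than every Emb-negative cell, and 1 Emb-negative cell had fewer than every Emb-positive cell.

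The sets of cells overlapped for every gene tested. The 3079 genes that were read in 6 or more of the 24 cells are called tested here. Of these, 505 met the measure used throughout: 364 (11.8%) were higher in Emb-positive cells and the remaining 4.58% of tested genes were lower. The measure asks for a difference of at least 1 between the mean log2(CPM + 1) of the sets, together with a ratio of at least 2 between the levels pooled over each set. Genes that meet both are called past the fold, which describes these 24 cells and does not show that a gene differs between the kinds of cell. The filter admits a gene read only in Emb-positive cells from 6 of 16, but one read only in Emb-negative cells from 6 of 8. With genes read in at least 1 cell, 376 were higher and 158 lower past the fold. Differences are Emb-positive minus Emb-negative. Their median over all tested genes was 0.25 and 95% of genes lay between -1.67 and 2.45. Higher and lower genes cancel in that median. The SD between cells of one set had a median of 2.29 (Emb-positive) and 2.48 (Emb-negative). An SD of single cells and a difference of means are unlike measures. A difference above 0 was found for 61.2% of genes. For no gene did the sets separate completely: the share of genes without overlap was 0.0% in either direction. Over all pairs of 1 Emb-positive and 1 Emb-negative cell, the Emb-positive cell was higher in 53.1% of pairs for the median gene. That share reached 92.2% for Nt5c and fell to 7.03% for Ccnl1, which encodes cyclin L1, a partner of splicing kinases (chosen after its values were seen). Ccnl1 had a read in 14 of 16 Emb-positive and all 8 Emb-negative cells, at 110 and 312 CPM, with a difference of -2.32.

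Genes seen in every cell showed little of this. Of the 761 genes read in all 24 cells, 8 (1.05%) were higher past the fold and 7 (0.920%) lower, with a median difference of 0.01. Among the 2318 genes missed in at least 1 cell, 356 (15.4%) were higher and 5.78% lower. A larger share of Emb-positive cells had a read for 1454 tested genes, a larger share of Emb-negative cells for 612, and the shares were equal for 1013. At equal depth of 270000 reads, the counts past the fold were 359 higher and 161 lower. In the 13 Emb-positive and 7 Emb-negative cells whose library reads lay in the range that both sets share, they were 371 and 190; the median library still differed there, at 541034 against 450197 reads.

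**Figure D3:**
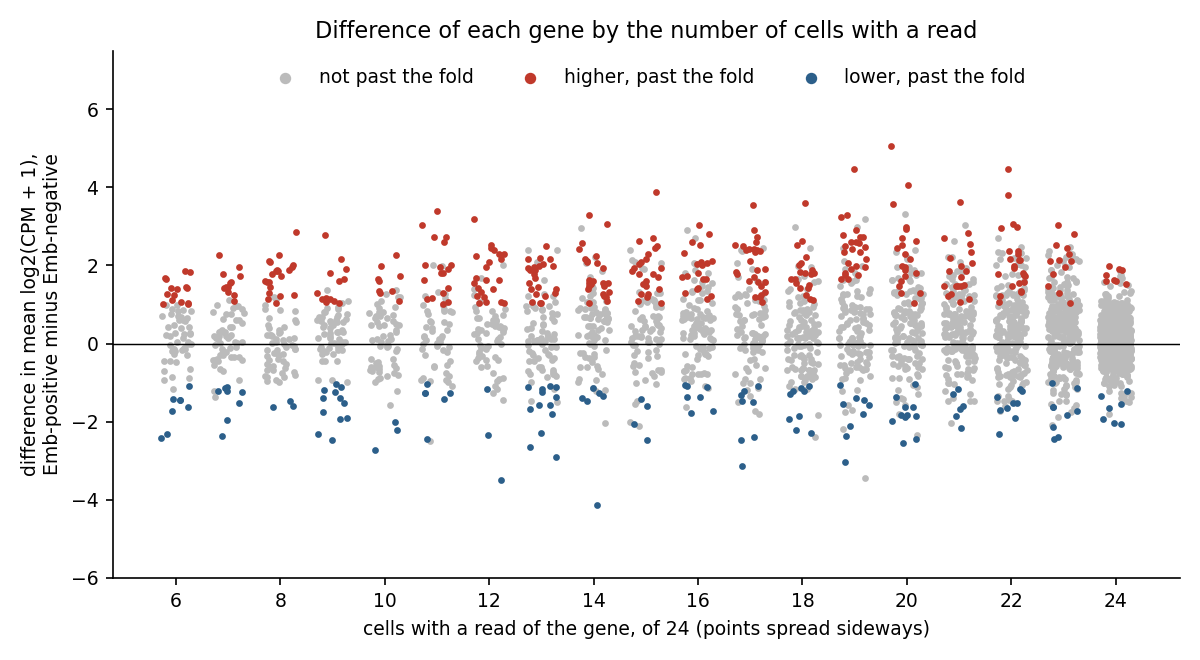
Difference in mean log2(CPM + 1), Emb-positive minus Emb-negative, for each of the 3079 tested genes, against the number of the 24 cells with a read of it. Red and blue points are past the fold (11.8% of genes higher, 4.58% lower); 8 red and 7 blue points stand in the column of genes read in all 24 cells.

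The 15 genes past the fold and read in every cell give the differences that do not rest on presence or absence of reads; they were picked after their values were seen. The higher ones were Shisa5, Bub3 (a spindle checkpoint protein), Soat1 (which esterifies cholesterol), Ccdc6, Ssrp1 (a subunit of the histone chaperone FACT), Mcl1 (an antiapoptotic BCL2 relative), Ankrd17 and Ubtf (a factor for ribosomal RNA transcription). Soat1 had 389 CPM in Emb-positive and 130 CPM in Emb-negative cells. The lower ones were Ube2k, Qk (an RNA-binding protein), Ttc3, Rrp15, Zfp706, Snx6 (a sorting nexin) and Nfe2l1 (a transcription factor for proteasome genes). Nfe2l1 had 48.8 CPM against 242 CPM, a ratio of 0.201, with a difference of -2.07 and SDs of 1.32 and 1.69. For Rrp15, which encodes a ribosome biogenesis protein, the Emb-positive cell was higher in 11.7% of pairs.

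The 12 highest differences among genes whose pooled ratio was at least 2, both with all cells and without the top cell of each set, predicted genes passed over, were those of Arhgdib, Scpep1, Ctsd, Dusp3, Nt5c, Timp3, Dab2, Idh2, Nup214, Sin3a, Tspan14 and Rnf115. Arhgdib (chromosome 6, 136923655 to 136941899, minus strand) encodes a protein best known from blood cells. It was read in all 16 Emb-positive cells, at 6.37 CPM in the lowest, 310 CPM in the median and 902 CPM in the highest cell. In Emb-negative cells it was read in 4 of 8, with a median of 4.76 and a highest level of 824 CPM. Its difference was 5.07, with SDs of 1.65 and 3.75. The pooled levels of Arhgdib were 389 and 84.5 CPM, a ratio of 4.61, and one cell, Emb-negative cell 18, held 75.1% of the Emb-negative reads. Without the top cell of each set the ratio was 15.5.

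Of the 12, Ctsd is the member of the lysosome and endosome list. Ctsd (chromosome 7, 142375911 to 142388038, minus strand), the lysosomal aspartic protease cathepsin D, was read in all 16 Emb-positive cells, with 34.1, 605 and 2401 CPM in the lowest, median and highest cell. Among Emb-negative cells, 6 of 8 had reads, and the levels were 0, 16.5 and 917 CPM. The sets overlapped, but 87.5% of pairs had the Emb-positive cell higher, and the difference was 4.46. The pooled ratio was 3.60, or 5.58 without the top cells. Scpep1, a serine carboxypeptidase, was read in 15 of 16 and 4 of 8 cells, at pooled levels of 303 and 57.2 CPM, a ratio of 5.30, or 9.05 without the top cell of each set. Dab2, a clathrin adaptor that brings receptors into endocytosis, was read in 16 of 16 and 5 of 8 cells, at 227 and 85.9 CPM. Its pooled ratio was 2.65, it was 5.00 without the top cells, and Dab2 was not past the fold among cells in the shared range of depth.

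The other higher genes had varied roles. Nt5c (chromosome 11, 115490420 to 115491862, minus strand) encodes a nucleotidase that dephosphorylates deoxyribonucleotides. It was read in 14 of 16 Emb-positive cells (87.5%) and in 1 of 8 Emb-negative cells (12.5%), with 429 and 4 reads in all. Dusp3, a phosphatase of MAP kinases, was read in 16 of 16 and 4 of 8 cells, and 69.8% of its Emb-negative reads came from cell 1. Its ratio was 2.33 with all cells and 5.98 without the top cells, and it was not past the fold without cell 12 or without cell 19. Timp3, a matrix-bound inhibitor of metalloproteinases, had 877 CPM in the median Emb-positive and 11.5 CPM in the median Emb-negative cell. The pooled ratio of Timp3 was only 2.08, since Emb-negative cell 1 reached 3102 CPM and held 61.6% of that set's reads, and Timp3 was past the fold in 24 of 35 alternative settings. Without the top cells the ratio of Timp3 was 3.92.

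Single Emb-negative cells also carried most of that set's reads of Idh2 and Sin3a. Idh2, the mitochondrial isocitrate dehydrogenase that makes NADPH, had a ratio of 2.25 with all cells and 22.7 without the top cells, because Emb-negative cell 12 held 93.4% of the reads; it was past the fold in 29 of 35 settings. Sin3a, the scaffold of a histone deacetylase complex, was read in 15 of 16 and 2 of 8 cells, and Emb-negative cell 1 held 99.0% of that set's reads. Nup214, a nuclear pore protein, was read in 15 of 16 and 5 of 8 cells, at 89.8 and 8.82 CPM. Tspan14, a tetraspanin that partners the protease ADAM10, was read in 10 of 16 cells and in 1 of 8. Rnf115, a ubiquitin ligase, had 346 reads in 13 Emb-positive cells and 1 read in 1 Emb-negative cell. All 12 differences stayed above 0 in every one of the 35 alternative settings, and 7 of the 12 were past the fold in all of them. The 12 were picked for large differences in these same cells, so this is no support for them. The settings also overlap: taking Emb-positive cells from 10 CPM is the same as leaving out cell 10. A gene left untested by a stricter filter, as Tspan14 was, counts as not past the fold.

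Some of these genes are also abundant in cells from the culture with megakaryocytes. Pooled levels there were 1796 CPM for Arhgdib, 2408 CPM for Ctsd, 2039 CPM for Dab2 and 1072 CPM for Dusp3, above the Emb-positive cells in each case, whereas Timp3 had 0.895 CPM. All cells of that culture were captured on plate 7, so plate and megakaryocytes cannot be told apart in these values. Beside the 3465 Arhgdib and 6690 Ctsd reads of the Emb-positive cells, the 24 listed macrophage genes ran in those cells from 0 reads, in 7 genes, to 213 for Cd74, all from cell 21, and 205 for Cd68. Emb-negative cells had 0 and 10 reads of these, and no read of 11 of the 24 genes. Cd14 had 84 and 6 reads and Mrc1 50 and 2, whereas Laptm5 had 3 and 43 and Csf1r 5 and 20. A single cell held 41 of the Cd14 reads, and likewise 49 of the Mrc1, 41 of the Laptm5 and 19 of the Csf1r reads. Read counts here are not scaled to depth, and the sets held 8901615 and 3513833 library reads in all. The part of these reads in the differences was not tested. Without the 2 cells that had a Ptprc or Adgre1 read, 358 genes were higher and 163 lower past the fold.

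**Figure D4:**
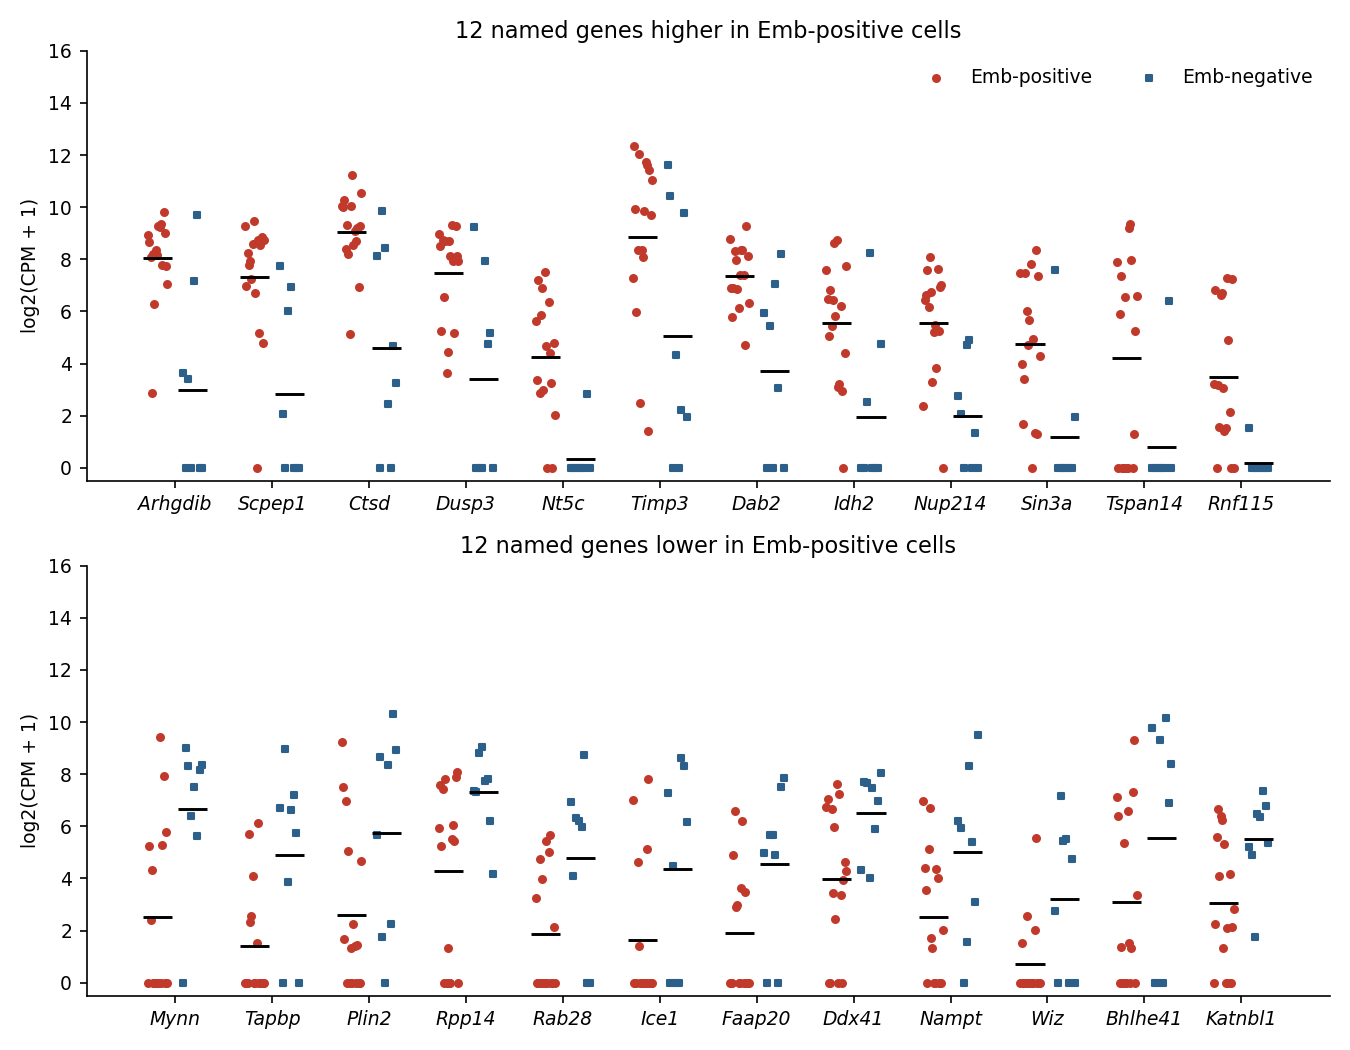
Level in each cell, as log2(CPM + 1), of the 12 genes with the highest (top) and the 12 with the lowest differences (bottom) among those whose pooled ratio was also at least 2 in that direction, with and without the top cells. Circles are the 16 Emb-positive and squares the 8 Emb-negative cells, bars are means over cells, and for every gene shown the points of the 2 sets overlap.

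By the same rule in the other direction, the 12 lowest differences were those of Mynn, Tapbp, Plin2, Rpp14, Rab28, Ice1, Faap20, Ddx41, Nampt, Wiz, Bhlhe41 and Katnbl1. Mynn (chromosome 3, 30602065 to 30619873, plus strand) encodes a zinc finger protein with a BTB domain. It was read in 7 of 16 Emb-positive cells (43.8%) and in 7 of 8 Emb-negative cells (87.5%). The levels of Mynn were 0, 0 and 683 CPM in the lowest, median and highest Emb-positive cell and 0, 234 and 512 CPM in Emb-negative cells. Its difference was -4.14 with SDs of 3.30 and 2.92. The pooled ratio of Mynn was 0.311, it was 0.138 without the top cells, and cell 14 held 62.0% of the Emb-positive reads.

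Tapbp (chromosome 17, 33915899 to 33929292, plus strand) encodes tapasin, which loads peptides onto MHC class I. It had 87 reads in 6 of 16 Emb-positive cells and 390 reads in 6 of 8 Emb-negative cells, at 9.77 and 111 CPM, a ratio of 0.0881. Plin2 (chromosome 4, 86648386 to 86670060, minus strand), the coat protein of lipid droplets, had a median of 1.66 CPM and a highest level of 595 CPM in Emb-positive cells, against 188 and 1251 CPM in Emb-negative cells. Its pooled ratio was 0.193, and single cells again held much of it, with 67.0% of the Emb-positive reads in cell 2 and 63.4% of the Emb-negative reads in cell 19. In the culture with megakaryocytes Plin2 stood at 589 CPM.

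Other lower genes had varied roles. Nampt, the enzyme of NAD salvage, had median levels of 2.67 and 50.5 CPM, and Bhlhe41, a repressor of clock genes, 1.75 and 228 CPM. Rpp14, an RNase P subunit, and Ddx41, a helicase, were read in all 8 Emb-negative cells but in 11 and 12 of the 16 Emb-positive cells, and their ratios were 0.366 and 0.429. Katnbl1, a katanin relative, was likewise read in all 8 Emb-negative cells, had a ratio of 0.359, and was not past the fold among cells in the shared range of depth. Rab28 (a small GTPase), Ice1 (part of a complex for small nuclear RNA transcription), Faap20 (a protein of the Fanconi anaemia pathway) and Wiz (a partner of histone methyltransferases) had ratios between 0.107 for Wiz and 0.239 for Ice1. For Wiz, cell 20 held 81.8% of the Emb-positive reads, and the ratio without the top cells was 0.036. All 12 differences stayed below 0 in the 35 alternative settings, and 9 of the 12 genes were past the fold in all of them. These 12 too were picked on the same cells, so this is no support for them. Ice1 and Wiz were not past the fold only where a stricter filter left them untested.

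How reads were assigned where genes overlap is not given in the sources used here. Of the 28 genes named so far by rule, including Alcam, 16 share exon bases with another gene of the mm10 annotation (GENCODE vM21), 14 of them with a gene on the opposite strand. Emb shares 686 exon bases with Gm17509, Timp3 1733 with Syn3, Tapbp 149 with Zbtb22 on its own strand and Ctsd 808 with Gm49369 on its own strand. Values of these genes can therefore include reads of the partner.

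Of a list of 6 genes of embigin and lactate transport, only 3 were among the listed genes. As for every tested gene, the sets overlapped in them. Bsg, the embigin relative basigin, was read in 15 of 16 Emb-positive and 8 of 8 Emb-negative cells, at 254 and 223 CPM, with a difference of -0.30 and SDs of 2.20 and 1.00. Slc16a1, the monocarboxylate transporter MCT1, had median levels of 43.4 and 46.3 CPM and a difference of -0.15, whose sign changed in 2 alternative settings. Ldha, lactate dehydrogenase A, was read in every cell, at 1157 and 863 CPM, with a difference of 0.26. None of the 3 was past the fold, and all 3 differences were smaller than the SDs of either set.

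Alcam (chromosome 16, 52248996 to 52454074, minus strand), the other gene in the series title, gave opposite answers by 2 measures. It was read in 14 of 16 Emb-positive cells, at 0, 113 and 382 CPM in the lowest, median and highest cell, and in 5 of 8 Emb-negative cells, at 0, 12.2 and 1257 CPM. The mean log2 level was higher in Emb-positive cells by 1.98 (SDs 2.83 and 4.29), but the pooled level was lower, at 158 against 227 CPM (1405 and 796 reads). Emb-negative cell 12 held 51.4% of the Emb-negative reads, at 786 CPM, and cell 18, at 1257 CPM, held another 340 reads. Without the top cell of each set, which leaves cell 18 in, the ratio went from 0.697 to 1.07. Alcam was not past the fold. In the culture with megakaryocytes the pooled level of Alcam was 173 CPM.

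The remaining genes were described by lists of pathways and cell types, chosen with earlier results of these data known. Members past the fold in any list stand beside 11.8% of all tested genes higher and 4.58% lower. Of the 5 tested members of immunoglobulin superfamily adhesion, which include Alcam and Bsg, 4 had a difference above 0, beside 61.2% of all tested genes, and the median was 1.36, against 0.25 over all genes. Only Cd47, a ligand that holds back phagocytosis, was past the fold, at 61.4 and 23.3 CPM, and not so without cell 10 or without cell 11. Pvr, a nectin-like adhesion protein, had a difference of 1.36 but pooled levels of 154 and 164 CPM. Integrins and focal adhesion had 8 tested members, none past the fold, and a median of 0.16. Itgav, the integrin alpha v chain, was read in all cells at 554 and 309 CPM, and was higher in the Emb-positive cell of 81.2% of pairs. Itgb1, the beta 1 chain, was also read in all cells, at 1115 and 1325 CPM, with a difference of -0.39.

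In the lysosome and endosome list, 3 of 19 tested members were higher past the fold and 0 lower. That is near the 11.8% and 4.58% of all genes, and the median difference was 0.61. Ctsd has been described. Hexa, a subunit of hexosaminidase, had 109 and 41.6 CPM, and Npc1, a cholesterol exporter of late endosomes, 58.5 and 15.4 CPM. Lamp1, the main lysosomal membrane protein, had a difference of 2.02, but Lamp2 had -0.42 and the proton pump subunits split, with 2.07 for Atp6v1b2 and -0.82 for Atp6v1a. The list as a whole did not move in one direction, with 12 of 19 differences above 0 beside 61.2% of all genes.

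**Figure D5:**
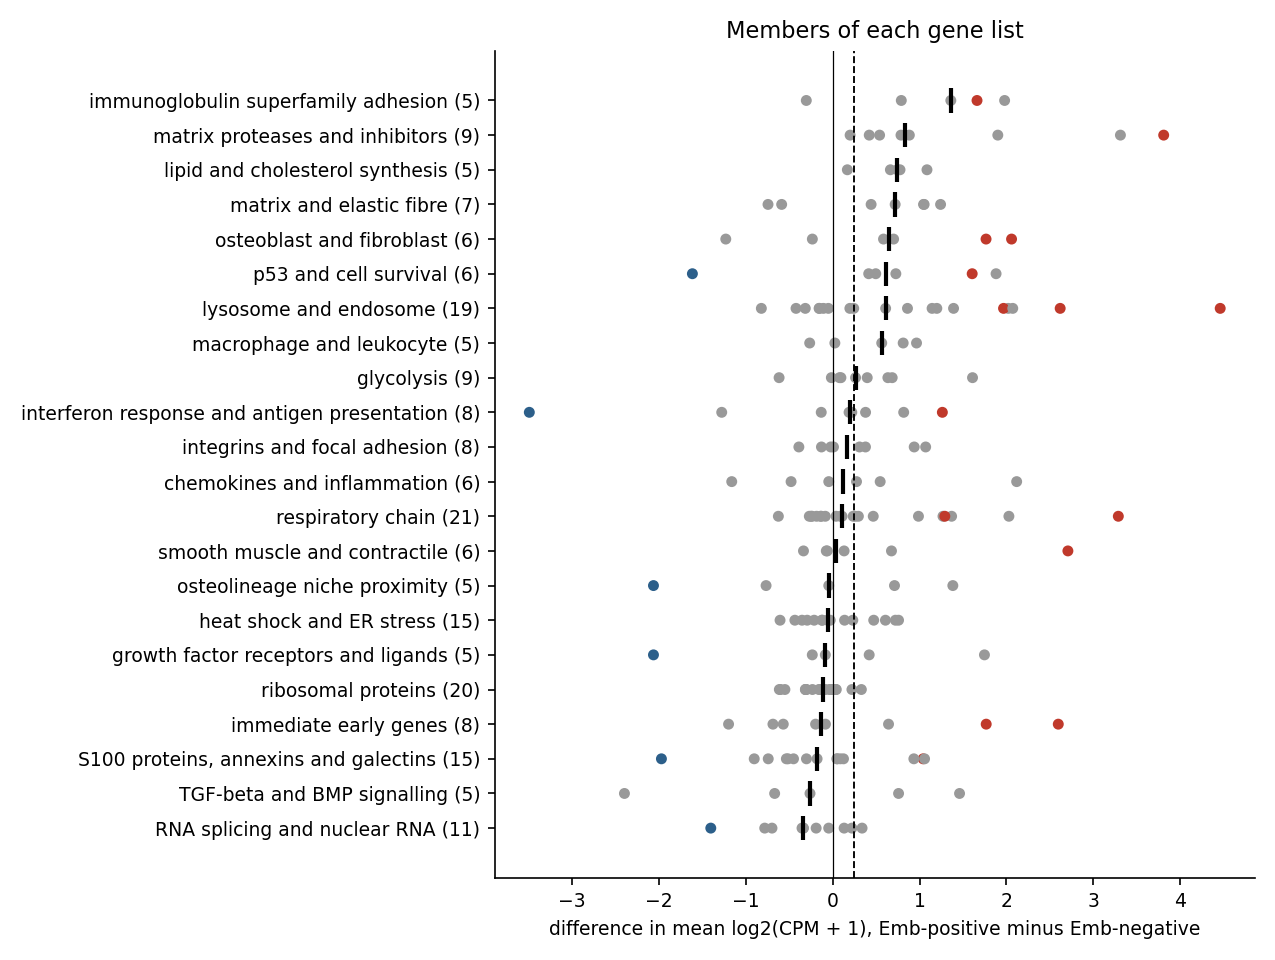
Differences in mean log2(CPM + 1) of the members of 22 gene lists (those with 5 or more tested genes, number in parentheses), ordered by their median (thick bar). Red and blue points are past the fold, the solid line is 0 and the dashed line the median of all tested genes, 0.25; the ribosomal proteins lie close to 0, while the lysosomal members spread from -0.82 to 4.46.

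Stromal lists gave single genes rather than whole groups. Of the 6 tested osteoblast and fibroblast genes, 2 were higher past the fold and 0 lower, beside 11.8% and 4.58% of all tested genes, with a median of 0.64. Mgp, a matrix protein that inhibits calcification, had 230 and 50.7 CPM, and Postn, the matrix protein periostin, 902 and 439 CPM. Postn was past the fold in only 23 of 35 settings. Col1a2, a chain of type I collagen, ran the other way in its mean log2 level, with a difference of -1.23, but had pooled levels of 4170 and 3452 CPM because cell 13 held 74.4% of the Emb-positive reads. In that cell Col1a2 stood at 44844 CPM, and leaving out the top cells moved the ratio from 1.21 to 0.532. Sparc, osteonectin, had a difference of -0.23.

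Of the 6 contractile genes only Acta2, smooth muscle actin, was past the fold, beside 11.8% of all tested genes that were higher. It was read in 14 of 16 Emb-positive cells, at 0, 454 and 2884 CPM in the lowest, median and highest cell, and in 6 of 8 Emb-negative cells, at 0, 52.7 and 1312 CPM. The difference was 2.71 with SDs of 3.75 and 4.34, and 68.0% of pairs had the Emb-positive cell higher. The pooled ratio of Acta2 was 2.57, and 5.03 without the top cells, as cell 12 held 61.6% of the Emb-negative reads. Tpm1, Tpm4, Myh9 and Cald1 had differences between -0.34 and 0.13, and the list's median was 0.03.

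All 9 tested matrix proteases and inhibitors had a difference above 0, beside 61.2% of all tested genes, with a median of 0.84 beside 0.25, and 1 of them, Timp3, was past the fold. By pooled level, Adam8 (31.7 and 38.4 CPM) and Adam17 were lower in Emb-positive cells, and the other members of that list were higher. Adam12, a metalloprotease, was read in 16 of 16 and 4 of 8 cells and its difference was 3.31, while the pooled ratio was 1.33, since cell 12 held 50.3% of the Emb-negative reads. Mmp14, the membrane-bound collagenase, had 153 and 76.6 CPM, a ratio of 1.99, just short of the fold. Of 7 matrix and elastic fibre genes none was past the fold. Thbs1, thrombospondin 1, was read in all cells at 5960 and 3502 CPM, and Mfap5, a microfibril protein, had a difference of 1.05 but pooled levels of 1993 and 2449 CPM. Median difference (0.72) and median log2 ratio of pooled levels (-0.09) of that list had opposite signs. All 5 tested genes of lipid and cholesterol synthesis had a difference above 0, again beside 61.2% (median 0.75), and none was past the fold. The largest of these differences, 1.09 for Scd2, went with a lower pooled level in Emb-positive cells, at 98.7 and 122.7 CPM. The other members of that list had higher pooled levels there. Lpl, lipoprotein lipase, from the adipocyte list, was past the fold, at 87.4 and 15.1 CPM. It was read in 10 of 16 and 2 of 8 cells, and cell 17 held 98.1% of the Emb-negative reads of Lpl, 52 of 53.

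Niche and growth factors did not go with Emb as a group. Igf1, insulin-like growth factor 1, was lower past the fold: 10 of 16 Emb-positive cells had reads, with a median of 3.64 and a highest level of 1052 CPM, and 5 of 8 Emb-negative cells, with a median of 277 and a highest level of 1617 CPM. Its difference was -2.06 (SDs 3.92 and 4.88), and Igf1 was past the fold in all 35 settings. Kitl, stem cell factor, was read in 8 of 16 and 2 of 8 cells, and cell 17 held 97.8% of the Emb-negative reads. Spp1, osteopontin, rested on single cells in both sets, with 98.2% of the Emb-positive reads in cell 13, and leaving out the top cells moved its ratio from 0.568 to 0.0242. The 5 tested members of the osteolineage niche list had a median of -0.05, which changed sign in 5 of 11 alternative settings. Ltbp1, which stores latent TGF-beta in the matrix, had a difference of -2.40 but a ratio of 0.626, and Id3, a target of BMP signalling, a difference of 1.46 and a ratio of 1.35.

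Among immune and stress genes the differences again were scattered. The 8 tested members of interferon response and antigen presentation included Tapbp (lower) and Stat2, a transcription factor of interferon signalling (higher). Over all tested genes, 4.58% were lower and 11.8% higher past the fold. Stat2 had 85 reads in 6 Emb-positive cells and 0 in Emb-negative cells, so it met the filter of 6 cells only through the Emb-positive set. With a floor of 3 reads for the 8 cells together, its level was at least 11.2-fold higher. Cell 10 held 65.9% of the reads, and Stat2 was past the fold in 22 of 35 settings. H2-K1, a class I heavy chain, was read in 5 of 16 and 7 of 8 cells, and its difference was -1.28, while the pooled ratio, 2.49, pointed the other way. Of 8 immediate early genes, Fos and Ier2 were higher past the fold, beside 11.8% of all tested genes, Fos at 199 and 80.0 CPM, and the median was -0.14. For Fos, cell 6 held 91.8% of the Emb-negative reads, the ratio was 2.49 with all cells and 14.6 without the top cells, and Fos was not past the fold with libraries thinned to 270000 reads, among cells in the shared range of depth, on the deposited values or without cell 11. Ccl2, a monocyte chemoattractant, was read in 16 of 16 and 7 of 8 cells with levels up to 14493 and 16523 CPM, and none of the 6 chemokine and inflammation genes was past the fold.

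Of 6 survival and p53 genes, Mcl1 was higher, at 224 and 82.0 CPM, and Aen, a p53-induced nuclease, lower, at 73.7 and 194 CPM. Of all tested genes, 11.8% were higher and 4.58% lower past the fold. Aen was not past the fold without cell 19. Bax, a proapoptotic BCL2 relative, had 149 and 75.7 CPM, a ratio of 1.96. S100a1 was higher and Anxa4 lower among 15 S100 proteins, annexins and galectins, beside 11.8% and 4.58% of all tested genes. Each of these 2 was past the fold in only 19 of 35 settings. None of the 5 tested macrophage genes was past the fold. Cd68, a lysosomal glycoprotein, had 205 and 10 reads (23.0 and 2.85 CPM), and Lyz2, lysozyme, 23 and 2 reads (2.58 and 0.569 CPM).

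Housekeeping lists lay near 0. None of 20 ribosomal protein genes was past the fold, with a median of -0.12 and a range of -0.61 to 0.33, and none of 15 heat shock and endoplasmic reticulum stress genes, with a median of -0.06. None of 9 glycolytic genes was past the fold (median 0.26). Of 21 respiratory chain genes, 2 were higher past the fold, beside 11.8% of all tested genes, and the median was 0.11. Ndufs1, a core subunit of complex I, had a pooled ratio of 4.19 (9.31 without the top cells) and reads in 15 of 16 and 4 of 8 cells. The other was Cycs, cytochrome c, at 16.3 and 4.27 CPM. Of 11 splicing and nuclear RNA genes only Neat1, a long noncoding RNA, was past the fold, lower at 259 and 614 CPM, a ratio of 0.421, or 0.158 without the top cells. It was not past the fold without cell 17, without cell 19 or without cell 24. Malat1 and Hnrnpu, both read in every cell, had differences of -0.70 and -0.78.

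The 5 tested genes of TGF-beta and BMP signalling had no member past the fold and a median of -0.26, and the 5 growth factor receptors and ligands, with Igf1 as the member past the fold, a median of -0.08. Lists with fewer than 5 tested members were not summarised by a median. Among these, no member of cadherins and catenins (2 tested), the YAP and TAZ pathway (2), collagen biosynthesis (3) or cell cycle and proliferation (4) was past the fold. Of 4 chondrocyte and adipocyte genes Lpl was higher and Plin2 lower, beside 11.8% and 4.58% of all tested genes. Ctnnb1, beta-catenin, was read in 16 of 16 and 7 of 8 cells at 400 and 393 CPM, and Ccnd1, cyclin D1, in 12 of 16 and 8 of 8 cells at 229 and 272 CPM. The lists of megakaryocyte and of endothelial markers had no tested member.

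Among the 16 Emb-positive cells, all of them chosen for an Emb value above 0, the order of the Emb levels is described here beside other genes. Across these 16 cells, which share 1 plate, the Spearman correlation of the Emb level with the level of each gene was above 0 for 4 of the 12 higher genes named above, beside 32.8% of the 2900 tested genes for which it could be computed. The highest of these 12 was 0.56, for Arhgdib, the median was -0.06 and the lowest -0.45. Across the 20 cells cultured with megakaryocytes, Arhgdib again had the highest of the 12, 0.72, with a median of 0.17 and a lowest of -0.35. Arhgdib is given here after its values were seen. Of the 10 named lower genes with a value across the 16 cells, 2 had a correlation above 0. The Emb level had a correlation of 0.12 with library reads and -0.72 with the number of listed genes with a read, so cells with more Emb showed fewer genes. The highest correlations among the tested genes, picked after their values were seen, were 0.76 for Ghitm, a mitochondrial inner membrane protein, and 0.71 for Cnot1, the scaffold of the CCR4-NOT deadenylase. The lowest were -0.87 for Cox5a, a subunit of cytochrome c oxidase, and -0.85 for Cndp2, a dipeptidase. In the 20 cells cultured with megakaryocytes, the correlation was 0.09 for Ghitm, -0.21 for Cnot1 and 0.16 for Cox5a. Over all genes with a value it was above 0 for 66.9% in those cells, and for 8 of the 12 higher genes. Each such correlation shares depth and gene detection with the Emb level itself.

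The labels give a plate well for each cell. By the column of that well, the 4 cells of column 1 were all Emb-positive, the 1 cell of column 7 was Emb-negative, and the columns between held both. With so few cells in a column no level was compared within columns, and the part of position in the differences was not tested.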

How the data were processed

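Single-cell RNA sequencing of 44 mouse cells was used, 24 of them cultured without megakaryocytes, and no column of the table was left out. The authors deposited a signal per gene and cell for 3613 genes. Its form was worked out from the values: gene reads × 1000000000 over the product of that cell's library reads and a whole number fixed per gene. All 99807 values above 0 came back as whole reads (tolerance 0.0001). CPM here is recovered reads × 1000000 / library reads. Reads carry no molecular identifiers, and the interval on Emb reads covers counting error only. Per the submitters' processing notes, the build was mm10 and Seurat was among the tools. Not given in the sources used here are the aligner, the counting program, its annotation and how the listed genes were picked.

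The design assumed counts; since the deposited unit is a signal, no count model was fitted. Cells count as 1 sample, so no test was made. Genes read in 6 or more of the 24 cells were analysed, with a pseudocount of 1 CPM. The sets, the 30 gene lists and the rule for named genes were chosen with earlier results of these data known. That rule takes Emb, Alcam, Ptprc and Adgre1, and the 12 highest and 12 lowest differences whose pooled ratio is at least 2 with all cells and without the top cell of each set, and whose share of cells does not go the other way. It also takes, per list, the 3 members with the largest absolute difference and any member past the fold, and passes over predicted genes. One list member is not reported here. Alternatives changed the Emb threshold, depth, scaling, unit, pseudocount, filter and cells included. No cell was removed, no clusters were made and no doublet caller was run. The scripts, in Python 3.11.15 with numpy 2.4.6, pandas 2.3.3 and scipy 1.17.1, were tested on simulated data, where genes simulated without a difference also passed the fold. Gene positions are from GENCODE vM21.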

Additional observations from a re-analysis of the deposited data

Results flagged for a closer look

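Of 111 measures over the 8 Emb-negative cells (the named genes and 5 per-cell measures), 15 had a highest or lowest cell whose gap to its nearest neighbour exceeded Dixon's 95% critical value for 8 samples, relative to the range. The rate of about 1 in 20 by chance holds for normally distributed values and does not apply here. Several of these genes had no read in most of the 8 cells, and many were named for large differences in these same cells. The 15 flags are therefore a description and not an excess over chance. The 16 Emb-positive cells were too many for this rule.

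The highest cell stood apart for 8 measures. Cell 19 had 6.097 CPM of Nt5c (4 reads) and 83.83 CPM of Tspan14, with no read of either in the other 7 cells. The same cell had the highest macrophage list sum, 96.03 CPM, against a median of 11.4 CPM in the others. Cell 1 had 190.6 CPM of Sin3a and 1.887 CPM of Rnf115 (1 read). Cell 17 had 395.4 CPM of Kitl and 115.5 CPM of Lpl, and cell 18 had 62.84 CPM of Abca1, a cholesterol exporter.

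The lowest cell stood apart for 7 genes. Cell 1 had 0 CPM of Mynn, against a median of 288 CPM in the other 7 cells. Cell 9 had 2.382 CPM of Katnbl1 and also 2.382 CPM of Calr, calreticulin, 1 read each, and 0 CPM of Aen. Cell 6 had 0 CPM of both Ltbp1 and Id3, and cell 18 had 7.393 CPM of P4hb, protein disulfide isomerase, against a median of 493 CPM.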

How the results depend on the processing

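Counts past the fold (364 higher, 505 in all) moved by over 1.5 times under 2 of 11 alternatives. With a pseudocount of 10 CPM, 182 were higher and 83 lower. Leaving out, for each gene, the top cell of either set, 628 were higher and 107 lower; by construction this removes 1 of 8 Emb-negative but 1 of 16 Emb-positive cells. Leaving out each cell in turn gave 353 to 451 higher genes, at most 182 lower genes and a median difference of 0.13 to 0.35; 195 higher and 46 lower genes stayed past the fold through all 24 removals, and 178 and 39 also through 6 further alternatives. The median difference ran from 0.13 (pseudocount 10) to 0.46 (without top cells) over the other alternatives. Emb-positive cells from 10 CPM (15 cells) gave 354 higher and 161 lower genes. Of 1408 values of named genes and lists under alternatives, 10 moved by more than 1 SD between cells and none of these changed sign. The list medians of niche and growth factor genes each changed sign in 5 of 11 alternatives, those of immediate early genes in 4, and those of heat shock and contractile genes in 2. No paired analysis was possible because both sets lie among the cells of one plate, whose numbers only name cells. Depth limits the split: an Emb-negative cell may hold Emb below 4.57 to 11.1 CPM.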
